A study of Mytilus galloprovincialis with 8 samples.

Results

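The digestive gland of mussels (Mytilus galloprovincialis) fed the dinoflagellate Prorocentrum lima was compared with that of control mussels on 4 of the 8 arrays of the series, namely those whose records name digestive gland. On every array a pooled RNA sample of 5 adult exposed mussels was hybridized together with a pooled sample of 5 adult control mussels, each with its own dye (a 2-colour array). The exposed mussels received P. lima, a producer of okadaic acid, for 24 h, and the control mussels did not. Both groups lived in aerated seawater tanks on the algae Tetraselmis suecica and Isochrysis galbana, and P. lima was given after an acclimation period. The records state 200 cells/ml of P. lima and the methods the same number per litre. There were 2 biological replicates, each hybridized once with the exposed RNA in red and once in green (a dye swap), so that 4 arrays amount to n = 2. The animals came from the wild, the number of tanks per group is not given in the sources used here, and tank and exposure cannot be told apart. The other 4 arrays held gill RNA of the same design.

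The digestive gland takes up and stores most of the toxins that a mussel filters from the water, and it is also the organ of digestion and of much of the animal's detoxification. Okadaic acid inhibits serine/threonine protein phosphatases and causes diarrhetic shellfish poisoning in people who eat contaminated shellfish. In a pool of tissue, fewer cells of a type and less RNA per cell cannot be told apart.

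The array was made from transcripts of this same organ. It carried 51300 probes, and each targeted a different contig (an assembled transcript sequence), so that no contig could be checked with another probe. The names put 15070 probes in the class mgt200.forw, 19188 in cDNA_MGT and 17037 in cDNA_MGC, and 5 probes lay outside these classes. By the study's codes and the names of the RNA samples, MGT stands for exposed and MGC for control mussels, and forw for a forward subtractive library, in which cDNA more abundant in exposed than in control digestive gland was enriched. These readings are inferred from the names. The study also made a reverse subtractive library, for transcripts that fell, but only a pair of the 5 probes outside the classes was named SSH_REV. Counts of rises and falls over all probes thus depend on which libraries the probes came from. The libraries were made from digestive gland only, and whether from the same pools of RNA as the arrays is not stated in the sources used here. The files do not pair probes with gene names (H2AZ is the one exception), and the tissue could not be checked against marker genes.

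On each digestive gland array more spots were well above background (the scanner software's mark of detection) in the exposed than in the control channel. The shares were 61.4% and 53.8% in replicate 1 and 60.6% and 52.9% in replicate 2 with exposed RNA in red, and 59.1% and 57.7% in replicate 1 and 66.9% and 59.0% in replicate 2 with exposed RNA in green. The excess was 7.59, 7.71 and 7.89 points on 3 arrays and 1.398 points on the replicate 1 array with exposed RNA in green. No spot was saturated. The SD of the log2 ratio between repeated spots of a probe was 0.10. The difference between dye orientations divided by 2 had a root mean square of 0.12 over all probes and that between replicates, divided by 2, one of 0.11, whereas the change on exposure had one of 0.48. Across probes (which are not independent replicates) the log2 ratios of an array and its own swap correlated at 0.878 in replicate 1 and 0.906 in replicate 2. The 2 arrays with exposed RNA in red correlated more closely, at 0.948, but the 2 with exposed RNA in green less closely, at 0.8288. These correlations do not settle whether dye orientation or pool moved the ratios more. Nor do the root mean squares, since dye orientations were compared on single arrays and replicates as swap averages. Every value below is the mean over a swap unless an array is named. The records name the red dye of the replicate 2 array with exposed RNA in green Cy6, which was read as Cy5.

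The level of 9127 of the 51228 probes tested in digestive gland (17.8%) differed between exposed and control mussels. Changes went in both directions: 4673 rose (9.12%) and 4454 fell (8.69%). These calls are by limma's moderated test on the 2 swap averages, with Benjamini-Hochberg adjusted p under 0.05. The spread in that test was estimated from the 2 gill averages as well, and an unadjusted p under 0.05 was found for 15927. With digestive gland fitted alone there were 6748 calls, 5983 of them shared with the 9127. Most changes were small. The median size among the called probes was 0.52 on the log2 scale (0.54 for rises and -0.51 for falls), and over all probes tested it was 0.09. The count rested on both replicates, with 4921 calls without replicate 1 and 2390 without replicate 2, where the lone average was assumed to vary like the gill replicates. It was 3955 with median centring in place of loess, which gave 64.2% rises among the calls against 51.2%, 5342 at a normexp offset of 0 and 14475 with the arrays entered separately.

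The direction of change differed by name class. Rises prevailed among mgt200.forw probes, were somewhat more frequent than falls among cDNA_MGT probes, and were the minority among cDNA_MGC probes. Of 15046 mgt200.forw probes tested 14.7% rose and 6.95% fell. Of 19168 cDNA_MGT probes 8.67% rose and 6.36% fell, close to the shares over all probes for rises and below them for falls. Of 17009 cDNA_MGC probes 4.68% rose and 12.9% fell. Rises thus made up 67.9% of the calls in mgt200.forw, 57.7% in cDNA_MGT and 26.7% in cDNA_MGC, and in each class they stayed on the same side of 50% under every other processing and with each replicate left out. Since exposed and control digestive gland were the source of these libraries, the counts are not independent evidence of a direction, and no class was tested against another. The class medians were close to 0, at 0.022 on the log2 scale in mgt200.forw, 0.0041 in cDNA_MGT and -0.025 in cDNA_MGC, against -0.00064 over all probes.

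The tails showed the same order on each array. A ratio above 1 on the log2 scale (more than 2-fold) was found for 4.85% and 5.28% of the mgt200.forw probes in replicates 1 and 2 with exposed RNA in red, and for 5.26% and 7.15% with exposed RNA in green. In cDNA_MGC these shares were 0.323% and 0.394% with exposed RNA in red and 0.488% and 0.947% with exposed RNA in green. A ratio below -1 was found in cDNA_MGC for 2.58% and 2.89% with exposed RNA in red and for 3.1% and 3.9% with exposed RNA in green. In mgt200.forw the same shares were 0.738% and 0.831% with exposed RNA in red and 0.691% and 1.26% with exposed RNA in green. The 4 values of mgt200.forw and of cDNA_MGC did not overlap in either direction. cDNA_MGT lay between them on every array, with 1.04% to 2.56% above 1 and 0.866% to 1.28% below -1 (1.28% against 1.26% in mgt200.forw on the replicate 2 array with exposed RNA in green).

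Large changes were concentrated further. Beyond 1 on the log2 scale 1048 called probes rose and 656 fell, on an array with a forward subtractive class and hardly any reverse probes. Of these rises 763 belonged to mgt200.forw, 234 to cDNA_MGT and 51 to cDNA_MGC, and of the falls 81, 153 and 422 belonged to the same classes in that order. Beyond 4 (more than 16-fold) 89 rose and 17 fell: mgt200.forw held 81 of the rises and none of the falls, cDNA_MGC 1 rise and 15 falls, and cDNA_MGT 7 rises and 2 falls. The 99th percentile of the log2 fold change over all probes of a class was 2.98 in mgt200.forw, 1.12 in cDNA_MGT and 0.67 in cDNA_MGC, and the 1st percentile was -0.88, -0.94 and -1.60 in that order. The largest rise was 8.57 on the log2 scale and the largest fall -5.92. An offset of 50 was added to the signals before taking logs, which draws the ratios of dim probes towards 0. At an offset of 0 the counts beyond 1 were 2181 rises and 1538 falls.

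**Figure D1:**
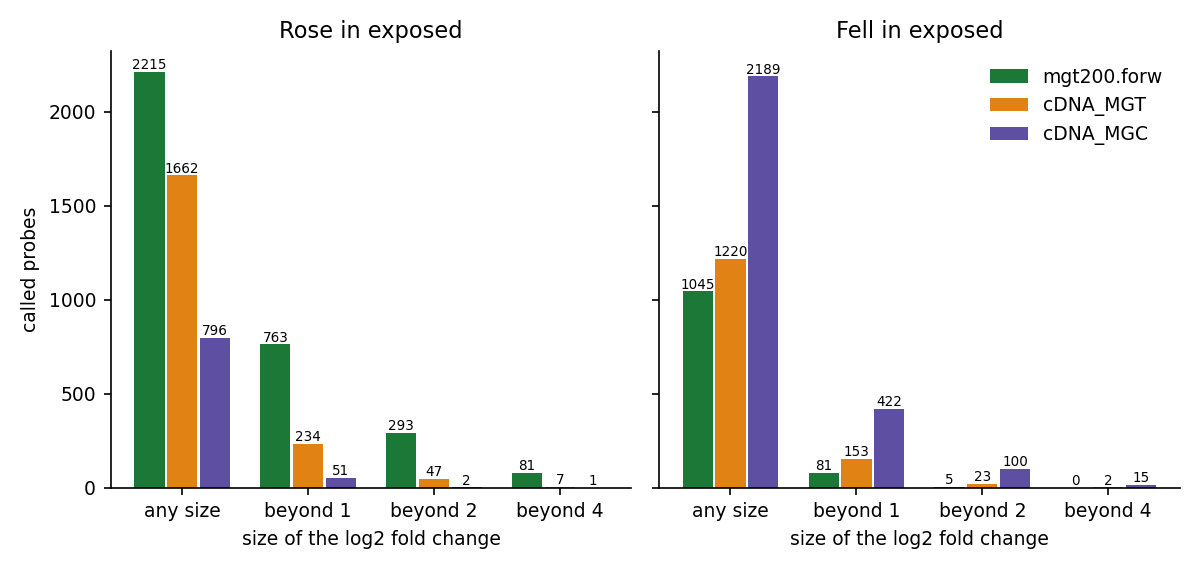
Called probes that rose (left) or fell (right) in exposed digestive gland, counted by the size of their log2 fold change and coloured by contig name class; counts stand above the bars. mgt200.forw made up 763 of 1048 rises beyond 1, and cDNA_MGC 422 of 656 falls.

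Within the forward subtractive class the probes differed among themselves by a mark in the contig name. Of 2517 mgt200.forw contigs with rep_c in their name 23.0% rose and 6.28% fell, against 13.1% and 7.08% of the 12529 with c alone. The rep_c contigs supplied 50 of the 81 rises beyond 4, and their 95th percentile of the log2 fold change was 2.17 against 0.88. They were also brighter, with a median log2 level of 7.30 against 6.63, and the part of brightness in this difference was not tested. In the other classes the mark went with smaller differences in the share of rises, 10.3% against 8.0% in cDNA_MGT and 5.43% against 4.27% in cDNA_MGC. The share of falls in cDNA_MGC was 12.9% with either name.

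Calls depended on brightness. The probes were divided into 5 equal classes by their mean log2 level over both channels of the 4 arrays, a mean that favours neither condition. It contains the change itself, so that a probe dim in 1 condition and bright in the other leaves the dimmest classes. Brightness reflects the affinity of a probe as well as the amount of its transcript. In the dimmest class 7 of 10245 probes were called (0.0683%). The shares were 4.05% in the second class, 22.7% in the third, 32.9% in the fourth and 29.4% in the brightest. The median absolute log2 fold change was 0.03 and 0.05 in the 2 dimmest classes, 0.13 in the third, 0.24 in the fourth and 0.27 in the brightest, so that the share called was highest in the fourth class and the median size in the brightest. The root mean square of the replicate difference divided by 2 was 0.04 in the dimmest class and 0.15 in the brightest, and that of the change on exposure was 0.04 and 0.77. Without the offset the gradient was flatter, with 1.35%, 6.10%, 17.4%, 16.0% and 11.3% called from the dimmest to the brightest class. The median absolute log2 fold change was then 0.20, 0.21, 0.31, 0.32 and 0.28 in the same order. With the scanner software's processed signals it was 0.43, 0.42, 0.45, 0.35 and 0.29, smallest in the brightest class. In both of these settings the third class had the highest share called. When the probes were classed by their brightness on the gill arrays, whose signals do not enter the digestive gland ratios, 9.77% of the dimmest class (1001 probes), 25.1% of the fourth and 23.0% of the brightest were called, against 17.8% over all probes. The spread of the gill averages does enter the test behind these calls, so that this classing is not independent of it. How far this moved the shares was not tested.

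The name classes also differed in direction within a class of brightness, most of all among dim probes. In the second class 94.6% of the calls in mgt200.forw were rises (106 rises and 6 falls), against 7.32% in cDNA_MGC (12 rises and 152 falls). In the third class these shares were 82.4% and 19.6%, in the fourth 64.4% and 30.7%, and in the brightest 59.6% and 31.0%. cDNA_MGT moved least, with 61.9%, 60.3%, 57.7% and 54.2% over the same classes. Over all probes rises made up 49.2%, 54.4%, 51.9% and 48.3% of the calls from the second to the brightest class. Loess centres the ratios at every level of brightness, so that this split is set in part by the normalization, and with median centring 64.2% of all calls were rises. Rises beyond 1 in the brightest class numbered 260 in mgt200.forw, 64 in cDNA_MGT and 34 in cDNA_MGC, and falls beyond 1 numbered 55, 73 and 183 in that order.

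**Figure D2:**
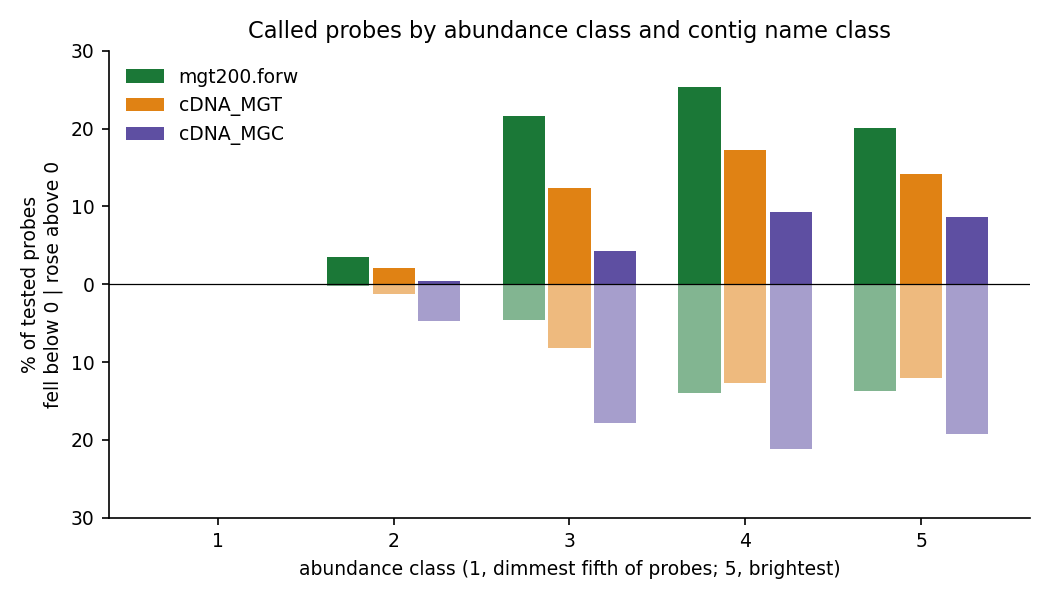
Percent of tested probes that rose (above 0) or fell (below 0, paler) in exposed digestive gland, by class of mean brightness and by contig name class. In the second class 94.6% of the mgt200.forw calls were rises against 7.32% in cDNA_MGC, and in the brightest class 59.6% against 31.0%.

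Some transcripts were detected in 1 condition only. A probe was taken as switched on when all its spots were well above background in the exposed channel of all 4 arrays and none was in the control channel of any, and as switched off in the reverse case. Of the 51228 probes 1068 were switched on (2.08%) and 233 switched off (0.455%), while 25423 (49.6%) were detected in both conditions on all 4 arrays, 14743 (28.8%) in neither on any, and 9761 (19.1%) on some arrays only. On single arrays 4127 and 4183 probes were detected in exposed only in replicates 1 and 2 with exposed RNA in red, and 2062 and 4529 with exposed RNA in green. The same arrays had 554, 542, 1335 and 735 probes detected in control only, taken in the same order. The replicate 1 array with exposed RNA in green had the fewest probes in exposed only and the most in control only, and without it 1543 probes were switched on and 244 off. On replicate 2 alone (without replicate 1) 1935 were switched on and 289 off, and on replicate 1 alone (without replicate 2) 1514 were switched on and 391 off. With the scanner software's mark of a positive and significant signal in place of well above background, 664 were switched on and 144 off.

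Switched-on probes came mostly from the exposed libraries and switched-off probes from the control library. Of the switched-on probes 639 belonged to mgt200.forw, 337 to cDNA_MGT and 92 to cDNA_MGC, which is 4.25%, 1.76% and 0.541% of the probes tested in each class. Of the switched-off probes 5 belonged to mgt200.forw (0.0332%), 52 to cDNA_MGT (0.271%) and 176 to cDNA_MGC (1.03%). A probe not above background has only an upper limit on its level, so that its change is given as a lower bound: the mean log2 level in the bright condition less that of the dim condition, with each dim value raised to the lowest level at which any probe was detected in that channel. Some probes went undetected above that level, so that the bound is approximate. Whether called or not, 361 switched-on probes had a bound of at least 2-fold, 157 of at least 4-fold and 33 of at least 16-fold. The median bound was 1.48-fold, and the highest 155-fold. Of the switched-off probes 93 had a bound of at least 2-fold, 21 of at least 4-fold and none of 16-fold, with a median of 1.72 and a highest of 7.34. Bounds of at least 4-fold among switched-on probes belonged to mgt200.forw in 136 cases and to cDNA_MGT in 21, and the remaining class had none. By brightness 707 of those on and 170 of those off lay in the third (middle) class, 195 and 51 in the second and none in the dimmest, while the brightest class held 15 of those on and none of those off. The fitted log2 ratios ran from -0.02 to 7.39 in switched-on probes and from -2.90 to -0.27 in switched-off probes, so that some switched-on probes showed hardly any change in level. By the limma fit 779 of the switched-on probes and 214 of the switched-off probes were called. They were chosen for a difference in detection on the same arrays, and their called shares are a description.

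**Figure D3:**
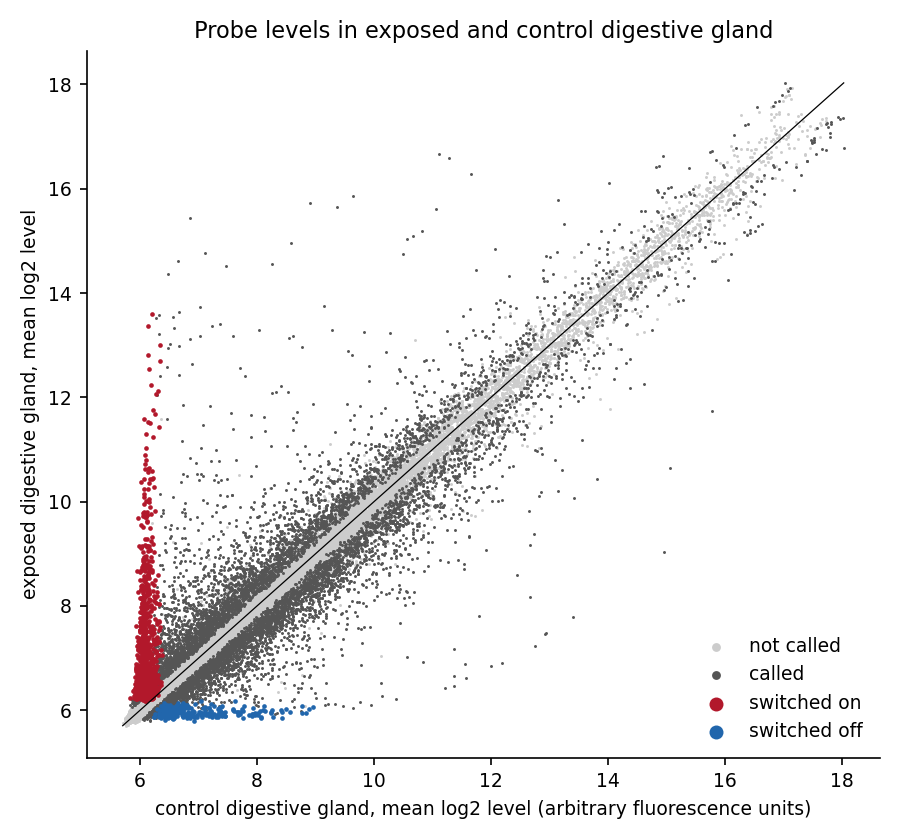
Mean log2 level of each tested probe in exposed (vertical axis) against control digestive gland (horizontal axis), n = 2 replicates, with 1068 switched-on probes in red, 233 switched-off probes in blue, other called probes in dark grey and the rest in pale grey; the line marks equal levels. The switched-on probes form a column near the floor of the control signal that reaches higher than the row of switched-off probes near the floor of the exposed signal.

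In gill most switched probes were below background, as were many probes of the array: 45.1% of all probes were detected in neither condition on any gill array and 33.6% in both on all. Of the 1068 switched-on probes 684 (64.0%) were detected in neither condition, 11 (1.03%) in both on all arrays, and 50 were switched on there too, against 310 switched on in gill in all. Of the 233 switched-off probes 123 (52.8%) were detected nowhere in gill, 4 (1.72%) everywhere, and 17 were switched off there as well, out of 63 in gill in all. All 17 belonged to cDNA_MGC.

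The called probes made up a sizeable share of the fluorescence. The risen probes carried 13.8% and 14.4% of the exposed signal in replicates 1 and 2, against 7.42% and 6.97% of the control signal. The fallen probes carried 12.8% and 12.2% of the exposed signal, against 19.6% and 20.0% of the control signal. Exposed and control values did not overlap for either set, which follows from the choice of called probes. The classes as a whole, which were not chosen on the arrays, moved less: mgt200.forw took 45.4% and 45.8% of the exposed signal against 42.6% and 42.0% of the control signal. cDNA_MGC took 36.3% and 35.6% of the exposed signal against 39.4% and 40.0% of the control signal. On single arrays mgt200.forw took 47.0% of the exposed signal against 41.4% of the control signal in replicate 1 and 46.6% against 40.4% in replicate 2 with exposed RNA in red, but 43.9% against 43.9% and 45.0% against 43.6% with exposed RNA in green. The direction of cDNA_MGT turned with the dye, at 17.1% of the exposed against 18.6% of the control signal in replicate 1 and 17.6% against 18.9% in replicate 2 with exposed RNA in red, and 19.3% against 17.4% and 19.6% against 17.2% with exposed RNA in green. cDNA_MGC took less of the exposed than of the control signal on all 4 arrays.

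Among the brightest probes changes were limited in size. The 100 probes with the highest level in exposed and the 100 with the highest in control shared 81. Of the first list 29 were called, 12 that rose and 17 that fell, and of the second 35, 6 that rose and 29 that fell, against 17.8% called over all probes and 29.4% in the brightest of the 5 classes. Their log2 fold changes lay between -0.81 and 1.15 in the first list and between -1.25 and 1.00 in the second. A list ranked by 1 condition favours probes that are higher in that condition. Of the 100 brightest on average 31 were called, 8 that rose and 23 that fell. Of the 100 brightest in exposed 64 belonged to mgt200.forw, 9 to cDNA_MGT and 27 to cDNA_MGC, and of the 100 brightest in control 59, 9 and 32.

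The size of the changes differed between the replicates. Among the rises beyond 1 the median log2 ratio was 1.45 in replicate 1 and 1.69 in replicate 2, and 897 of 1048 (85.6%) were larger in replicate 2. Among the falls beyond 1 the medians were -1.37 and -1.44, and 447 of 656 (68.1%) were larger in replicate 2. All 17 falls beyond 4 were larger in replicate 2, with medians of -4.60 and -5.22. By array the medians of the rises beyond 1 were 1.37 and 1.49 in replicates 1 and 2 with exposed RNA in red, and 1.57 and 1.90 with exposed RNA in green, so that replicate 2 was higher within each orientation. The falls beyond 1 had medians of -1.36 and -1.41 with exposed RNA in red and -1.42 and -1.54 with exposed RNA in green. The spike-in control RNAs (10 probes with 35 spots each) had swap-averaged log2 ratios of 0.04 to 0.24 in replicate 1 and of -0.49 to -0.09 in replicate 2. They were lower in replicate 2, where both the rises and the falls were larger, and their part in this was not tested.

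**Figure D4:**
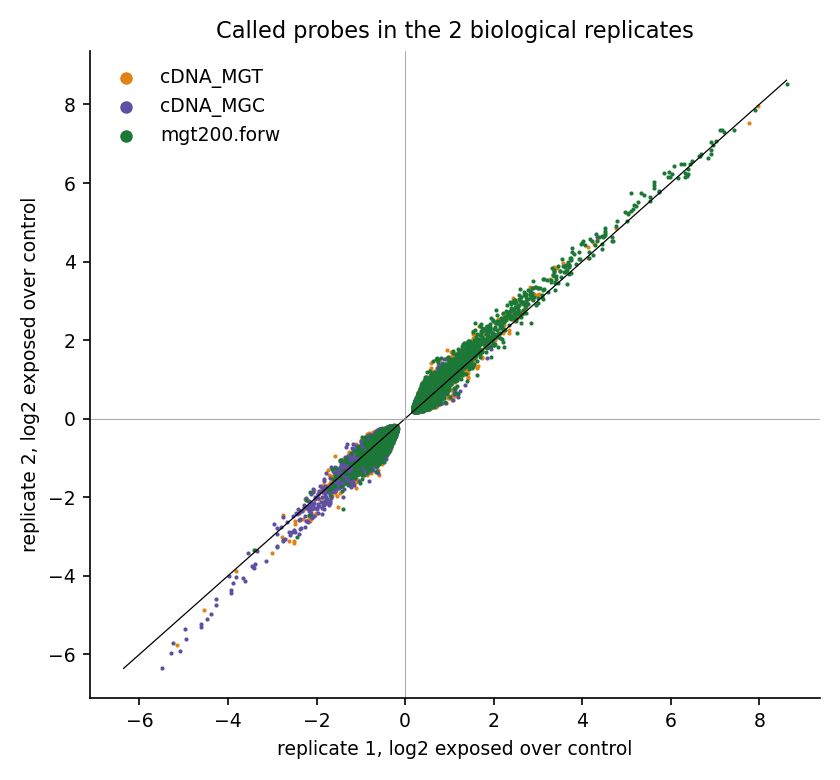
Log2 ratio of exposed over control in replicate 2 (vertical axis) against replicate 1 (horizontal axis) for the 9127 called probes, coloured by contig name class; the line marks equal ratios. Falls beyond 4 lie below the line and most rises beyond 1 above it, which in both cases is the larger change in replicate 2.

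Of single transcripts, the switched-on probe with the highest bound was CUST_38115_PI427859148, for contig mgt200.forw_c2029. Its log2 level in exposed digestive gland was 13.8 and 13.6 in replicates 1 and 2 with exposed RNA in red, and 13.5 and 13.5 with exposed RNA in green. In control it was 6.94 and 6.86 on the first 2 of these arrays and 5.42 and 5.61 on the others, in no case above background. Exposed values were alike on all arrays, and control values differed by the dye that the control RNA carried. By the bound defined above, the transcript rose at least 155-fold. Its fitted log2 ratio was 7.39 ± 0.09 (limma's moderated SE, to which the gill averages contribute as well, n = 2, adjusted p = 0.000239 by limma). In gill it was likewise detected on all 4 arrays in exposed and on none in control, with log2 ratios of 0.28 and 0.59 and an adjusted p of 0.152.

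The largest rise among bright probes detected in both conditions was that of CUST_41294_PI427859148, for contig mgt200.forw_rep_c7142. Its log2 level in exposed was 15.4 and 15.3 in replicates 1 and 2 with exposed RNA in red and 15.6 and 15.5 with exposed RNA in green, against 7.47, 7.32, 6.24 and 6.38 in control on the same arrays. The log2 ratio was thus 7.90 and 7.98 with exposed RNA in red and 9.34 and 9.08 with exposed RNA in green. It was higher on both arrays with exposed RNA in green, and the replicates were close within each orientation. After averaging the swaps it was 8.57 ± 0.05 (limma's moderated SE, n = 2, adjusted p = 0.000117 by limma). It rose in gill as well, with a log2 fold change of 1.30 (replicates 1.32 and 1.27, adjusted p = 0.046 by limma), and was above background there on all 4 arrays in exposed and on none in control.

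The switched-off probe with the highest bound, CUST_18887_PI427859148, belonged to contig cDNA_MGT.90_c1933, a name of the exposed library. Its log2 level in exposed was 5.90 and 5.77 in replicates 1 and 2 with exposed RNA in red and 6.57 and 6.01 with exposed RNA in green, never above background. In control it was 8.86, 8.69, 9.18 and 9.13 on the same arrays. The groups did not overlap, which follows from the choice of the probe. By the bound defined above, its fall was at least 7.34-fold. Its fitted log2 ratio was -2.90 ± 0.09 (limma's moderated SE, n = 2, adjusted p = 0.00103 by limma). In gill it was above background on 2 of 4 arrays in exposed and on none in control, with log2 ratios of -0.01 and 0.24, so that its gill ratio is that of a probe near the floor.

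The largest fall among bright probes detected in both conditions was that of CUST_2726_PI427859148, for contig cDNA_MGC_c2726. Its log2 level in exposed was 9.68 and 8.51 in replicates 1 and 2 with exposed RNA in red and 9.43 and 8.52 with exposed RNA in green. In control it was 15.16, 14.97, 14.92 and 14.78 on the same arrays. The exposed level was lower in replicate 2 in both orientations, while the control level varied little. The fitted log2 ratio was -5.92 ± 0.22 (limma's moderated SE, n = 2, adjusted p = 0.00129 by limma), with -5.49 in replicate 1 and -6.36 in replicate 2. That SE draws on the gill averages as well and is smaller than the 2 digestive gland replicates alone would give.

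**Figure D5:**
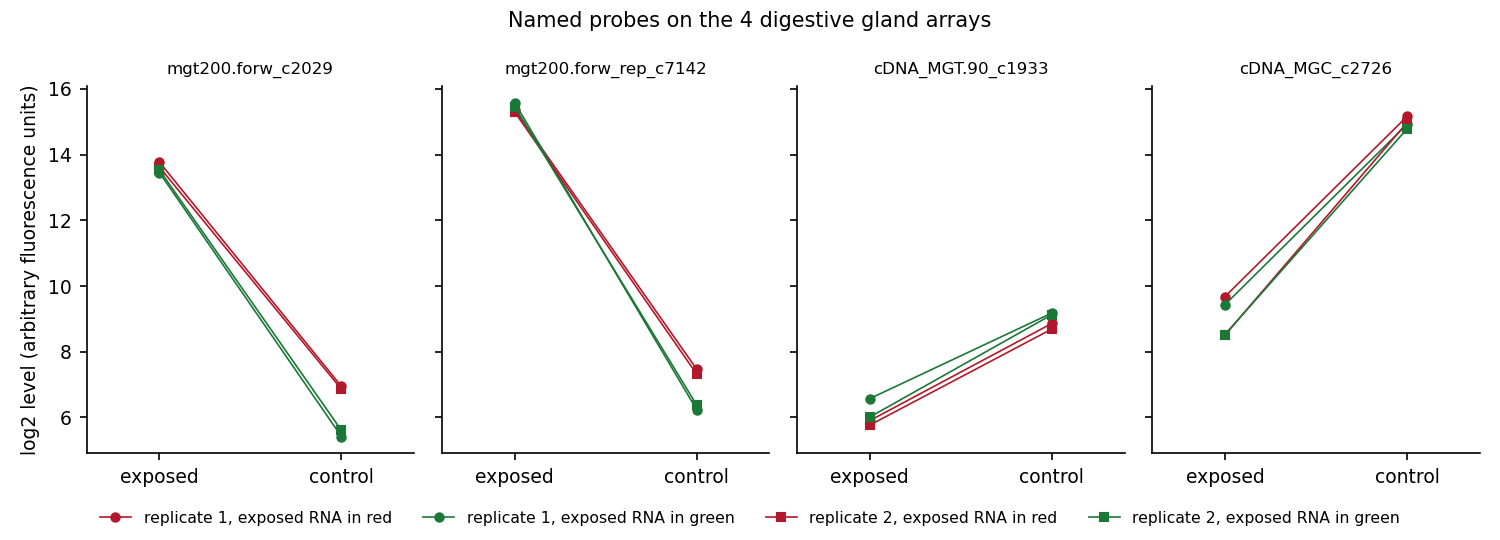
Log2 level of the 4 named probes in exposed (left) and control (right) digestive gland, a line for each array; circles are replicate 1, squares replicate 2, red lines arrays with exposed RNA in red and green lines arrays with exposed RNA in green. For mgt200.forw_c2029 the control level follows the orientation (6.94 and 6.86 against 5.42 and 5.61), and for cDNA_MGC_c2726 the exposed level follows the replicate (9.68 and 9.43 against 8.51 and 8.52).

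The 10 largest rises in the brightest class, among probes detected in both conditions on all arrays, ran between 6.23 and 8.57 on the log2 scale, and 9 of them belonged to mgt200.forw and 1 to cDNA_MGT. The 10 largest falls ran between -4.79 and -5.92, and 9 belonged to cDNA_MGC and 1 to cDNA_MGT. Each of these rises was called, with adjusted p of 0.0155 or less by limma, and each of the falls with 0.00162 or less. In gill their log2 fold changes lay between 0.03 and 1.89 for the rises and between -0.94 and 0.01 for the falls. None of these 20 probes was detected in both conditions on all gill arrays, and 1 of the rises and 4 of the falls were detected on none. How far this limited their gill ratios was not tested.

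The digestive gland response differed from that of gill in 4979 of 51210 probes (9.72%, by limma's contrast between the tissues with adjusted p under 0.05), of which 4374 were called in digestive gland. An unadjusted p under 0.05 was found for 13146. Among the called digestive gland probes the difference was found for 52.4% in mgt200.forw, 44.0% in cDNA_MGT and 46.8% in cDNA_MGC, against 47.9% of all called. For rises beyond 1 it was found in 865 of 1048 and for falls beyond 1 in 517 of 656. These sets were chosen for their size in digestive gland, so that these counts are a description. In gill 478 of the rises (45.6%) and 138 of the falls (21.0%) were detected nowhere, against 45.1% of the tested probes. The ratio of such a probe stays near 0. Detected in both conditions on all gill arrays were 176 of the rises (16.8%) and 313 of the falls (47.7%), against 33.6% of the tested probes. The rises beyond 1 had median gill ratios of 0.07 and 0.03 in replicates 1 and 2, and 50 of them exceeded 1 in size in gill. The falls beyond 1 had median gill ratios of -0.07 and -0.07, and 46 exceeded 1. Digestive gland and gill arrays lay in different rows of the slide, and tissue and row cannot be told apart. The count was 1464 and 829 without gill replicates 1 and 2, and 1846 and 911 without digestive gland replicates 1 and 2.

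None of the 5 probes outside the name classes was called by limma, and 1 had an unadjusted p under 0.05. The H2AZ probe, for a histone variant of nucleosomes, had log2 ratios of -1.17 and -1.11 in replicates 1 and 2, below 0 on all 4 arrays. The mean was -1.14 ± 0.38 (SE, limma adjusted p = 0.139). Its gill ratios, whose spread enters the same test, were 0.97 and -0.57 in replicates 1 and 2. Its log2 level in exposed digestive gland was 11.4, 11.6, 11.5 and 11.5, against 12.6, 12.7, 12.7 and 12.6 in control. A pair of probes named NORM_MGT had log2 fold changes of -1.02 and -1.04, and a pair named SSH_REV had -0.30 and -0.31, with adjusted p between 0.162 and 0.447. In gill replicates 1 and 2 the first NORM_MGT probe had log2 ratios of 1.23 and -0.39, and the other 0.99 and -0.62.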

How the data were processed

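The authors deposited Agilent scanner output (Feature Extraction 10.7.3.1) with median intensities, local background and quality marks of each spot, and a series-wide table of log2 values (red against green); these log2 values, deposited by the authors, were used only as an alternative. The quality marks deposited by the authors decided detection and outliers. Median intensities were background-corrected with normexp (offset 50) and normalized by loess within arrays with limma 3.58.1 in R 4.3.3; control spots and outlier-flagged spots were left out, spots of a probe averaged, ratios turned to exposed over control and dye swaps averaged. One limma fit of the 4 averages (2 of each tissue) had a mean per tissue and 2 residual degrees of freedom, and p-values were adjusted by Benjamini-Hochberg over all probes at 0.05. They measure only the spread between the 2 replicate pools of each tissue, combined over digestive gland and gill and moderated by limma. Levels were scaled between arrays by Aquantile. Depth is given as the share of spots above background, and the small number of arrays limits the precision. The fit was tested on simulated data. Alternatives changed background, normalization, filters, threshold and the arrays entered.

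Named probes are the called switched-on and switched-off probes with the highest bounds and the called probes with the largest rise and fall in the brightest class, detected in both conditions on all arrays. Members and lists were chosen with earlier results of these data known. No sequences or gene names were used here.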

Additional observations from a re-analysis of the deposited data

Results flagged for a closer look

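On the replicate 1 array with exposed RNA in green the excess of spots above background in exposed over control was 1.398 points, against 7.587 to 7.892 on the other 3 digestive gland arrays, and 2062 probes were detected in exposed only, against 4127 to 4529. Both values stood apart from the rest by Dixon's criterion for 4 values at the 95% level, which chance meets in about 1 of 20 groups; 2 of 18 values tested met it, and they come from the same array. Without that array 10764 probes were called in digestive gland.

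The change differed between digestive gland and gill for 4979 probes (limma, adjusted p under 0.05). Among the named probes the difference, as digestive gland minus gill on the log2 scale, was 6.95 for CUST_38115_PI427859148 (adjusted p = 0.00108), 7.277 for CUST_41294_PI427859148 (0.000476), -3.013 for CUST_18887_PI427859148 (0.00409) and -5.617 for CUST_2726_PI427859148 (0.00584). In gill these probes were above background on all 4, all 4, 2 and none of the arrays in exposed, and on none, none, none and 2 in control, in the same order. In digestive gland CUST_38115_PI427859148 was never above background in control, nor CUST_18887_PI427859148 in exposed. A channel below background gives only a limit on a level, so that the size of each difference is not exact. How far this drew the gill ratios towards 0 was not tested.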

How the results depend on the processing

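With 2 pools per condition, the counts rest on few residual degrees of freedom, and dim probes limit what can be seen. All 4 named probes kept their direction and stayed past the threshold under every alternative in which they were tested. In each name class the share of calls that rose stayed on the same side of 50%. At a normexp offset of 0 there were 5342 calls (55.1% rises), 2181 rises and 1538 falls beyond 1 and 2360 differences from gill, with 83.4% rises in mgt200.forw and 17.2% in cDNA_MGC. At an offset of 10 there were 1718 rises and 1193 falls beyond 1, and from the log2 values deposited by the authors they numbered 1723 and 1197. With the scanner software's processed signals, whose ratios had a median of -0.15 over all probes, there were 3034 rises and 2314 falls beyond 1, with 80.8% rises in mgt200.forw and 20.6% in cDNA_MGC. Median centring gave 3955 calls and 1402 differences from gill, with 64.2% rises in all, 87.3% in mgt200.forw and 69.9% in cDNA_MGT. With only probes well above background, 47.3% of the calls rose, against 51.2% of all calls, with 627 rises beyond 1 and 60.5% rises in mgt200.forw. With digestive gland fitted alone 22.1% of the cDNA_MGC calls rose. With the arrays entered separately there were 14475 calls and 11025 differences from gill, and 31.0% rises in cDNA_MGC. At an adjusted p under 0.01 there were 2933 calls and 870 differences from gill, with 81.5% rises in mgt200.forw and 15.2% in cDNA_MGC. The cause of these shifts was not tested.

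By brightness, from the dimmest class to the brightest, an offset of 0 gave 138, 625, 1786, 1635 and 1158 calls, median centring 0, 75, 1124, 1608 and 1148 (10702 probes had an unadjusted p under 0.05), no background subtraction 22 in the dimmest class, and classes from gill brightness 1001 and 1252 in the 2 dimmest. The mark of a positive and significant signal gave 664 probes switched on and 144 off. Comparing probes of the same contig gave no value, since each contig has 1 probe.

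With a replicate left out, calls ranged between 2390 and 6748 and differences from gill between 829 and 1846. The share of rises ranged between 71.6% and 85.2% in mgt200.forw, 55.9% and 63.5% in cDNA_MGT and 20.4% and 24.6% in cDNA_MGC. The highest count of calls and the lowest shares in mgt200.forw and cDNA_MGT came from leaving out a gill replicate, which keeps both digestive gland replicates. With a digestive gland replicate left out, switched-on probes numbered 1514 to 1935 and switched-off probes 289 to 391. Replicate numbers are shared by the tissues without a stated pairing (r = 0.162 between their deviations); a replicate block gave 9342 calls, 7867 of them shared with the 9127, and 4696 differences from gill.

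Alternatives chosen after seeing the data gave, without the replicate 1 array with exposed RNA in green, 30.8% rises in cDNA_MGC. Arrays with exposed RNA in red only gave 61.1% rises in cDNA_MGT and 32.6% in cDNA_MGC, and those with exposed RNA in green only gave 5443 calls, with 53.9% and 19.1%.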
